A study of Mus musculus with 4 samples.

Results

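The genes described here are the matrix metalloproteases, the ADAM and ADAMTS proteases, the ADAMTS-like proteins and the tissue inhibitors of metalloproteases (TIMPs). They were taken by symbol (Mmp, Adam, Adamts, Adamtsl or Timp followed by a digit), without Mmp7 and Timp2, which gave 82 of the 27998 genes in the matrices: 22 Mmp, 33 Adam, 19 Adamts, 5 Adamtsl and 3 Timp genes. All libraries came from kidneys of BAC-CluGFP mice, which carry a green fluorescent reporter for clusterin, and all cells had been sorted for the reporter, so only reporter-positive cells were seen. The 4 libraries were 1 of untreated kidneys and 1 each of kidneys taken on days 2, 7 and 30 after 35 min of ischemia and reperfusion (ischemia-reperfusion injury, IRI). How many animals went into a library is not stated. Because each group is a single library, no replicate spread could be had and no test was run, and every interval below covers counting error only.

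Matrix metalloproteases cut collagens, gelatin, elastin and other matrix and surface proteins, most ADAMs with protease activity release the outer parts of membrane proteins, and ADAMTS proteases cut matrix proteoglycans and procollagens. TIMPs bind the active sites of these enzymes, and TIMP3 also inhibits ADAM17 and several ADAMTS proteases. In the injured kidney these genes are studied for matrix turnover, for the shedding of growth factors and receptors, and as products of leukocytes and fibroblasts.

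Several metalloprotease genes lie side by side on mouse chromosome 9, and 6 of them carry the AP-1 letters in the promoter window: Mmp12, Mmp3, Mmp10, Mmp13, Mmp1a and Mmp1b. The 120 bases before the start are shown for the first 4, which had UMIs in these libraries, because Mmp12 is described in detail below and because the immediate-early genes counted beside Adamts1 include subunits of AP-1. The sequences are from RefSeq promoters of GRCm38.p6, plus strand, 5′ to 3′, with the AP-1 letters in capitals.
Mmp12 (chr9:7347254-7347373): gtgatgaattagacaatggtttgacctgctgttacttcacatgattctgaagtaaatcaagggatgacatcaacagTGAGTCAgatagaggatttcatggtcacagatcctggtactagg
Mmp3 (chr9:7445702-7445821): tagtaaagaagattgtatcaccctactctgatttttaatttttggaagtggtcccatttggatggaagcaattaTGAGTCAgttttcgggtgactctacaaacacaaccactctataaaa
Mmp10 (chr9:7502222-7502341): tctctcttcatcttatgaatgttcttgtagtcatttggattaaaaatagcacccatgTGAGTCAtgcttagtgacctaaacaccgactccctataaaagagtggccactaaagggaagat
Mmp13 (chr9:7272394-7272513): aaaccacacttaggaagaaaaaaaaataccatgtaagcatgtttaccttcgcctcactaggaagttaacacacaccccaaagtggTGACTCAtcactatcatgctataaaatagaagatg
The first capital lies 44 bases before the start in Mmp12, 46 in Mmp3, 63 in Mmp10 and 35 in Mmp13. Mmp12 has a second annotated start upstream whose window holds no match. TGACTCA on either strand was found in the promoter windows of 9 of the 51 members with a promoter entry (17.6%), against 5.95% of the 27025 genes with one. Of the 9 such members called higher after IRI by the rule below, 1 had a match (11.1%, Mmp12), as did 8 of the 42 others (19.0%). Each window runs from 250 bases before the start to 50 after it. The windows of Adamts1, Timp1 and Timp3 hold no match. A match is a description of the letters and not a measured binding site.

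The libraries held 9286 barcodes from untreated kidneys and 9023, 1930 and 6991 from day 2, day 7 and day 30, of which 6545, 8310, 1920 and 6365 were kept in the same order. Median UMIs (unique molecular identifiers, counted molecules) per barcode were 4568.5, 8982, 23394 and 9201 in that order, and the lowest barcode of the day 7 library had 18362 UMIs. Between 4 and 20 barcodes were shared by any pair of libraries. Cells were put into classes by a marker gate, with 5813, 7322, 1510 and 4860 cells gated and 213, 520, 204 and 981 cells near the cut. Mitochondrial transcripts made up 22.5%, 14.1%, 5.5% and 8.8% of the UMIs of proximal tubule-like cells from untreated to day 30, and 22.6%, 8.0%, 4.5% and 7.6% of those of thick ascending limb-like cells. Their part in the differences below was not tested beyond leaving these UMIs out of the totals. Levels are given as CPM, the UMIs of a gene scaled to a fixed total of UMIs of the class in that library.

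Of the 82 members, 69 had at least 1 UMI and 19 reached 100 CPM in some class and library of at least 50 cells. The 13 without a UMI were 11 Adam genes and the 2 Mmp genes Mmp1a, annotated as a polymorphic pseudogene, and Mmp1b. Members together took 1245 CPM without injury and 1294, 1928 and 2464 CPM on days 2, 7 and 30, over all kept cells. Mmp genes gave 30.8% and Timp genes 30.7% of the member UMIs of all libraries, Adamts genes 20.2% and Adam genes 17.6%. The abundant members differed in the class of their highest level. It was endothelium-like for Timp3, parietal epithelium-like for Adamts1, macrophage-like for Mmp12 and neutrophil-like for Mmp9 and Mmp8. For Timp1, Mmp14, Mmp2, Adam12 and Adamts2 it was fibroblast-like. Some also reached 100 CPM in other classes, among them Timp3 in fibroblast-like cells and Mmp2 in parietal epithelium-like cells.

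**Figure D1:**
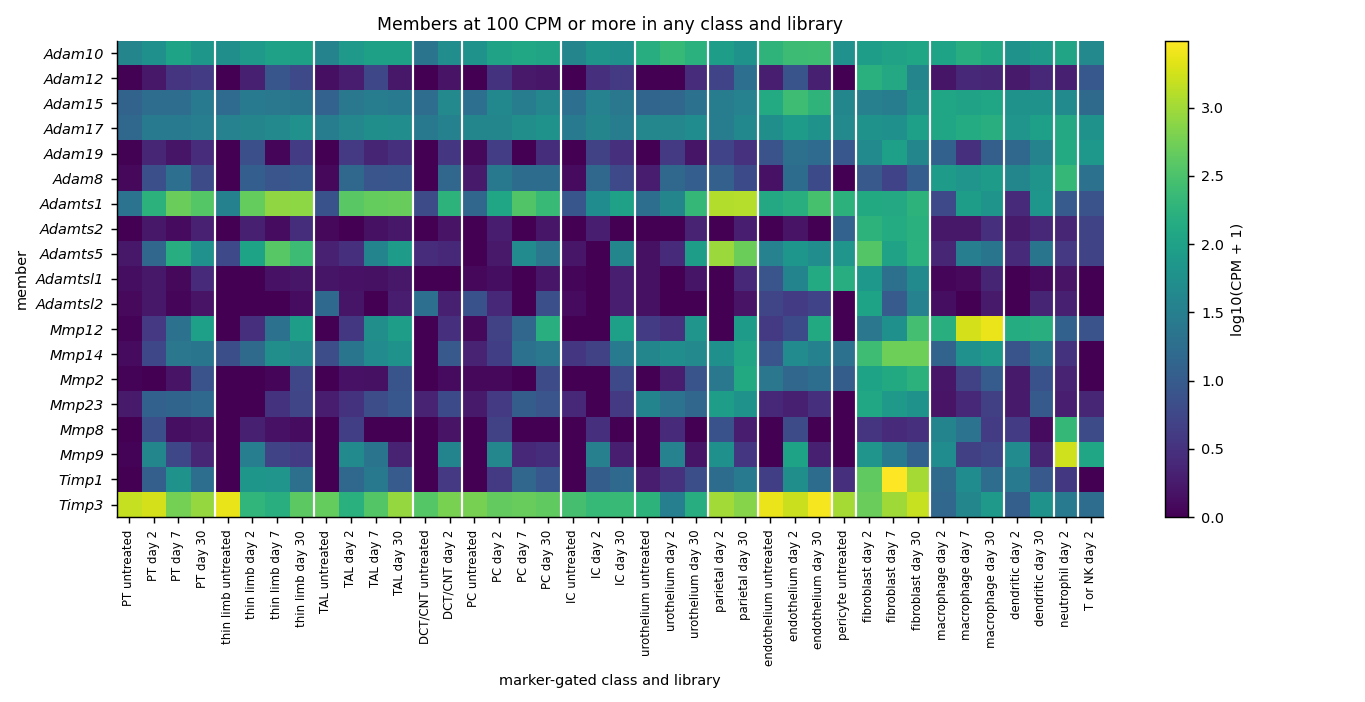
Levels, as log10(CPM + 1), of the 19 members that reached 100 CPM, in each marker-gated class and library of at least 50 cells, with libraries of a class side by side from untreated to day 30. PT, TAL, DCT/CNT, PC and IC are proximal tubule, thick ascending limb, distal convoluted or connecting tubule, principal cell and intercalated cell. Mmp12 is bright in macrophage-like cells at day 7 and day 30, Mmp9 in neutrophil-like cells at day 2, and Timp1 in fibroblast-like cells at day 7.

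A member was called higher or lower in an IRI library than in the untreated one at a CPM ratio of at least 2-fold with the exact 95% interval of the ratio off 1, and was measured at 20 CPM or more in either library with at least 20 UMIs. A class was compared only with at least 50 cells in both libraries, and only if none of the clusters holding at least 10% of its cells in a library was led by more markers of another class than of its own. That left the proximal tubule-like and thick ascending limb-like classes at all 3 times, endothelium-like cells at day 2 and day 30, plus, at day 2, distal tubule-like cells (a gate that joins the distal convoluted and connecting tubules). The thin limb-like, principal cell-like, intercalated cell-like, urothelium-like and macrophage-like classes did not pass, and their levels are given without calls. This check of clusters was added after the calls over every class had been counted, and its 10% share set out the principal, intercalated and urothelium-like classes, which pass at a share of 25%.

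Over the classes compared, the pairs of member and class called higher numbered 22, 15 and 19 on days 2, 7 and 30, and those called lower 1, 1 and 0. Over every class of at least 50 cells, with no check of clusters, the pairs called higher numbered 38, 24 and 38 and those called lower 4, 3 and 3. In all, 17 members were measured in at least 1 comparison with the untreated library. In proximal tubule-like cells 3 of 6 measured members were called higher at day 2, 6 of 8 at day 7 and 7 of 9 at day 30, against 18.7%, 35.4% and 30% of all measured genes. The day 30 count was 4 of 9 with mitochondrial UMIs left out of the totals and 4 of 9 under median-ratio scaling. At day 7 the counts were 6 of 9 and 4 of 8 in the same order, and at day 2 they were 3 of 6 under both. In thick ascending limb-like cells 6 of 8, 9 of 11 and 7 of 9 were called higher at the same times. The shares of all measured genes were 12.1%, 21.7% and 23.7%. Under median-ratio scaling the thick ascending limb-like counts were 4 of 8, 6 of 11 and 4 of 9. Without mitochondrial UMIs they were 4 of 8, 7 of 11 and 7 of 10. In distal tubule-like cells 5 of 7 were called higher at day 2, against 18.1%, and in endothelium-like cells 8 of 16 at day 2 and 5 of 13 at day 30, against 7.85% and 9.36%. The members that pass the 20 CPM minimum include those that pass it only in the library where they are high, so these shares are a description of the members measured. Timp3 was the one member called lower: once in thick ascending limb-like cells at day 2, where 11.1% of all measured genes were called lower, and once in proximal tubule-like cells at day 7, where 9.14% were. The other comparisons had 0 members called lower. There, 4.24% and 5.9% of all measured genes were called lower in proximal tubule-like cells at day 2 and day 30, 7.97% and 8.18% in thick ascending limb-like cells at day 7 and day 30, 9.6% in distal tubule-like cells at day 2, and 9.04% and 9.43% in endothelium-like cells at day 2 and day 30.

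Between IRI libraries the same classes were compared, and fibroblast-like, parietal epithelium-like and dendritic cell-like cells where both libraries held 50. At day 7 against day 2, 4 of 10 members were called higher and 3 lower in proximal tubule-like cells, with 11.5% and 8.31% of all measured genes so called. In the thick ascending limb-like class it was 4 and 1 of 11, with 5.54% and 1.52%, and in the fibroblast-like class 5 and 9 of 27, with 8.13% and 8.31%.

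At day 30 against day 2, 4 of 11 were called higher and 3 lower in proximal tubule-like cells, with 7.73% and 4.89% of all measured genes so called. The thick ascending limb-like class had 4 and 1 of 10 (9.08% and 1.88%), the parietal epithelium-like class 3 and 2 of 18 (5.5% and 4.93%) and the endothelium-like class 2 and 4 of 15 (6.77% and 5.19%). The dendritic cell-like class had 5 and 2 of 12 (8.8% and 8.28%). At day 30 against day 7, 1 of 10 was called higher and 2 lower in proximal tubule-like cells (3.4% and 1.55%), 2 and 2 of 11 in thick ascending limb-like cells (2.29% and 1%), and 6 and 4 of 25 in fibroblast-like cells (6.62% and 2.86%). Each of these shares of measured members was above that of all measured genes, as a description with no test.

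**Figure D2:**
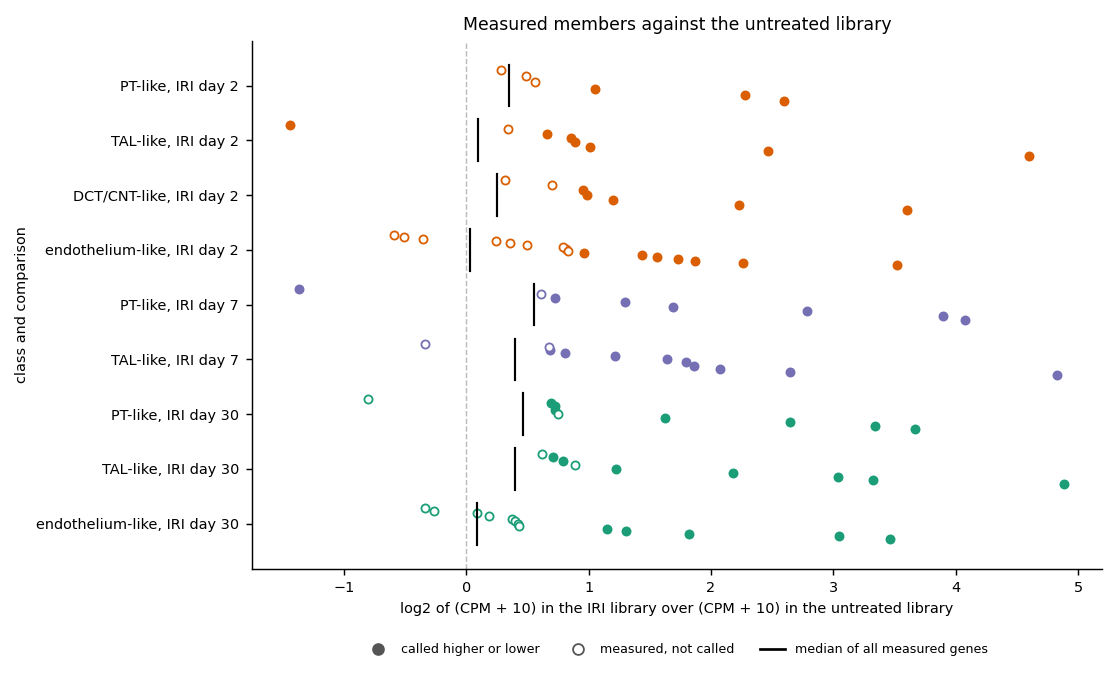
Each point is a measured member in 1 class and comparison, placed by log2 of (CPM + 10) in the IRI library over (CPM + 10) in the untreated library. Filled points were called, open points were not, and the black line is the median of all measured genes. The points above 4 are Adamts1 in thick ascending limb-like cells and, at day 7, in proximal tubule-like cells, and the filled points below 0 are Timp3.

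Adamts1, a secreted protease that cuts aggrecan and versican, was higher after IRI in each epithelial class compared and at each time. In proximal tubule-like cells it stood at 20.1 CPM without injury and 172, 499 and 373 CPM on days 2, 7 and 30. Its ratio over the untreated library was 8.55 at day 2 (interval 7.30 to 10.00), 24.8 at day 7 (22.6 to 27.3) and 18.5 at day 30 (16.8 to 20.5). The untreated library was the lowest and the intervals of the levels did not overlap between any of the 4 libraries.

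In thick ascending limb-like cells Adamts1 was at 6.66 CPM without injury and 394, 463 and 481 CPM on days 2, 7 and 30. The ratios over the untreated library were 59.2, 69.5 and 72.3, with lower bounds of 42.7, 49.9 and 52.1. The clusters differed between libraries: cluster 14 held 97.1% of the untreated cells, cluster 13 97.2% of the day 2 cells, and cluster 10 72.0% of the day 7 and 95.8% of the day 30 cells. The 3 IRI libraries lay close together, and the intervals of day 7 and day 30 overlapped. With every cell thinned to 2000 UMIs, the share of these cells with an Adamts1 UMI was 1.09% without injury and 37.3%, 59.1% and 45.9% on days 2, 7 and 30. The unthinned shares were 4.34%, 76.3%, 92.5% and 79.3%. In distal tubule-like cells it was at 177 CPM at day 2, against 5.43 CPM in the untreated library, a ratio of 32.7 (17.1 to 71.8). The day 2 cells of that class lay in cluster 17 and the untreated ones in clusters 9 and 28. Cluster 9 held 50.8% of these untreated cells and was led by 4 markers of this class and 4 of principal cells. Principal cell-like cells made up 69.8% of cluster 9.

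The same gene was already present in untreated endothelium-like cells at 128 CPM, was at 153 at day 2 and was called higher at 297 at day 30, a ratio of 2.32 (1.96 to 2.75). Endothelium-like cells of both IRI libraries lay mostly in cluster 19 and the untreated ones in cluster 18, so that no class compared with the untreated library shared its main cluster with it, and the part of this in the differences was not tested. The highest Adamts1 levels were those of parietal epithelium-like cells, 1249.8 CPM at day 30 and 1231 at day 2, a class with too few untreated cells to compare. Most of these cells lay in cluster 6. Its leading genes held 2 markers of the class (Wnt16 and Ncam1) and 1 of pericytes or smooth muscle (Tagln). In thin limb-like cells the Adamts1 levels were 33.1, 460.4, 804 and 800.1 CPM from untreated to day 30, and in principal cell-like cells 13.1, 112, 343 and 227.

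The dissociation immediate-early list, genes that cells also switch on during enzymatic dissociation, was counted beside Adamts1. Its summed level in proximal tubule-like cells was 355 CPM in the untreated library and 2793, 3919 and 4968 CPM on days 2, 7 and 30, and 13 of 13, 15 of 15 and 15 of 15 measured list genes were called higher, against 18.7%, 35.4% and 30% of all measured genes. In thick ascending limb-like cells it was 1395, 4449.7, 3693 and 11486 CPM, with 13, 11 and 14 of 15 called higher, against 12.1%, 21.7% and 23.7% of all measured genes. Between IRI libraries the order of the list was not that of Adamts1: in proximal tubule-like cells the list was higher and Adamts1 lower at day 30 than at day 7. In endothelium-like cells it was 6949, 6078 and 13846 CPM in the untreated, day 2 and day 30 libraries, and Adamts1 was called higher there at day 30 and not at day 2. In thin limb-like cells the list stood at 7909 CPM at day 2 and 12764 CPM in the untreated library. Adamts1 was at 460.4 CPM at day 2 and 33.1 CPM in the untreated library. Of these untreated cells 95.3% lay in cluster 23, led by urothelium markers, and 96.4% of the day 2 cells lay in cluster 5. The thin limb-like levels of the list and of Adamts1 were therefore not compared. The part of dissociation in the Adamts1 levels was not tested.

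Adamts5, the other aggrecan-cutting protease of the family that reached 100 CPM, lies beside Adamts1 on chromosome 16 (Adamts5 at chr16:85856173-85901828 and Adamts1 at chr16:85793827-85803113, both on the minus strand of GRCm38). In proximal tubule-like cells it was at 0.664 CPM without injury and 13.0, 149 and 56.6 CPM on days 2, 7 and 30. It was called higher at day 7 (ratio 224, interval 135 to 401) and day 30 (85.2, interval 51.1 to 154) and was under the 20 CPM minimum at day 2. In thick ascending limb-like cells it was at 1.11, 1.92, 36.9 and 81.1 CPM, so that it was near its untreated level at day 2, when Adamts1 was already at 394 CPM. Between day 30 and day 7 the 2 tubule classes differed in direction: Adamts5 was called lower in proximal tubule-like cells (ratio 0.38) and higher in thick ascending limb-like cells (ratio 2.20). In these comparisons 1.55% of all measured genes were called lower in proximal tubule-like cells and 2.29% higher in thick ascending limb-like cells.

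Adamts5 was at 502 CPM in parietal epithelium-like cells at day 30 and 918 at day 2, and at 354, 101 and 171 CPM in fibroblast-like cells on days 2, 7 and 30. Parietal epithelium-like cells were 11.1% of the kept cells at day 30 and 0.866% at day 2, and held 38.5% and 38.2% of the library's Adamts5 UMIs. Of the Adamts1 UMIs they held 32.1% at day 30 and 10.8% at day 2. Ungated cells held 31.1% of the Adamts1 UMIs of the day 30 library and were 23.6% of its kept cells. Over 8 other classes at day 30, immune ones left out, Adamts5 ran from 4.59% to 49.4% of its parietal epithelium-like level. Adamts1 ran from 7.94% to 64.0% of its own, and the 4 parietal epithelium markers together from 5.73% to 27.3% of theirs. The day 7 library held 10 parietal epithelium-like cells (0.521% of its kept cells). The part of free RNA in the tubule levels was not tested beyond subtracting 10%.

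**Figure D3:**
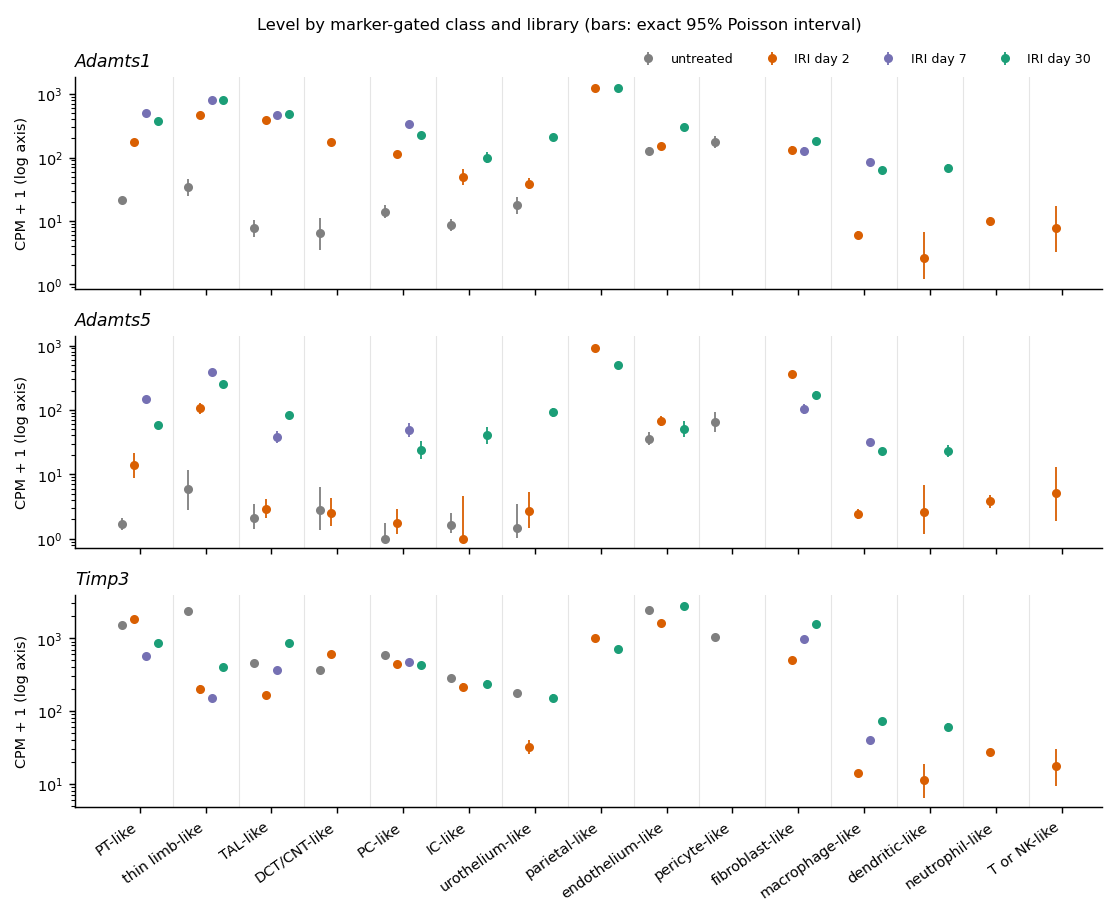
Levels of Adamts1, Adamts5 and Timp3 in each marker-gated class (CPM + 1, log axis), 1 point per library with the exact 95% Poisson interval. In the tubule classes the untreated Adamts1 points lie lowest, the Adamts5 points of distal tubule-like cells are close together (1.51 CPM at day 2 and 1.81 CPM untreated), and Timp3 has no common order of libraries across classes.

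Timp3, the TIMP bound to matrix, gave more UMIs than any other member, 123462 in kept cells of all libraries. It was at 1507 CPM in untreated proximal tubule-like cells and 1841, 578 and 861 CPM on days 2, 7 and 30. It was called lower at day 7 (ratio 0.384, interval 0.375 to 0.393), and at day 30 the ratio of 0.572 fell short of 2-fold. At day 30 it was called lower under 3 alternatives, with log2 differences of -1.03 without mitochondrial UMIs, -1.39 under median-ratio scaling and -1.04 with Leiden clusters, against -0.80. In thick ascending limb-like cells it was at 464 CPM without injury and 165, 364 and 869.7 CPM on days 2, 7 and 30. It was called lower at day 2 (0.356, interval 0.333 to 0.380), while the day 30 ratio of 1.88 lay on the other side of 1. In endothelium-like cells it was at 2415, 1599.6 and 2756 CPM in the untreated, day 2 and day 30 libraries, and in distal tubule-like cells at 609 CPM at day 2, against 371 CPM in the untreated library, none of which was called. After subtracting 10% free RNA it was called higher in distal tubule-like cells at day 2 (log2 difference 1.11) and in thick ascending limb-like cells at day 30 (1.18). In the untreated library the 16 proximal tubule markers together ran from 9.16% to 24.0% of their proximal tubule-like level over 8 other classes. Timp3 ran from 11.9% to 160% of its proximal tubule-like level in the same classes. The part of free RNA in the Timp3 levels was not tested beyond the 10% subtraction.

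The proximal tubule-like cells of the libraries came from different clusters. In cluster 4, led by Havcr1 and Vcam1, Timp3 was at 559 CPM at day 30 (359 cells) and 467 CPM at day 7 (525 cells). In cluster 24, led by Slc5a12, Slc27a2 and Lrp2, it was at 1464 CPM at day 30 (201 cells) and 2661 CPM at day 2 (72 cells), against 1405 to 1857 CPM in the 3 untreated clusters. Within the day 30 library Adamts1 was at 455 CPM in cluster 4 and 198 in cluster 24, and Adamts5 at 76.4 and 13.6 CPM in the same order. The cluster that holds most of the class changed along with its Timp3 level, and the part of that change was not tested.

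In thin limb-like cells Timp3 was at 2329 CPM in the untreated library and 199.9, 152 and 402 CPM on days 2, 7 and 30. Nearly all untreated cells of this class (95.3%) lay in cluster 23, which was led by urothelium markers, so these levels were not compared. Timp3 overlaps Syn3 on the opposite strand, and the strand setting of the counting is not stated, so the share of reads that could be assigned to the wrong gene of the pair was not tested. Syn3 had 4248 UMIs in kept untreated cells, against 56459 for Timp3.

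Timp1, a secreted inhibitor of most matrix metalloproteases, was at 434, 3089 and 1037 CPM in fibroblast-like cells on days 2, 7 and 30. It was called higher at day 7 and at day 30 than at day 2, with ratios of 7.11 and 2.39, where 8.13% and 10.1% of all measured genes were called higher. Fibroblast-like cells held 50.03% of the Timp1 UMIs of the day 7 library and were 2.8% of its kept cells. In proximal tubule-like cells Timp1 had 0 UMIs in the untreated library and was at 10.3, 58.8 and 17.3 CPM on days 2, 7 and 30. The day 7 level was at least 443-fold higher than a floor of 3 UMIs in the untreated class. At day 7 Timp1 in proximal tubule-like cells was 1.90% of its fibroblast-like level and the 9 fibroblast markers together were 0.22% of theirs.

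Mmp14, a membrane-anchored metalloprotease that activates pro-MMP2, was likewise highest in fibroblast-like cells, at 257, 525 and 517 CPM on days 2, 7 and 30. In proximal tubule-like cells it was at 0.266 CPM in the untreated library and 4.79, 23.2 and 21.6 CPM on days 2, 7 and 30, and was called higher at day 7 and day 30. After subtracting 10% free RNA, Mmp14 there was at 19.7 CPM at day 7 and 16.3 CPM at day 30. Both levels were under the 20 CPM minimum, so both calls were lost. The day 30 call was also lost at a gate of 2 times the cut. The thick ascending limb-like levels of Mmp14 were 5.73, 21.6, 47.3 and 61.1 CPM, and it was called higher at each time, with ratios of 3.77, 8.26 and 10.7. The day 2 call there was lost at the same stricter gate and with only cells above the highest UMI floor of any library. In endothelium-like cells it was at 7.30, 47.4 and 32.8 CPM in the untreated, day 2 and day 30 libraries and was called higher at both. Mmp2, the gelatinase that MMP14 activates, was at 105, 133 and 173 CPM in fibroblast-like cells and at 129 CPM at day 30 and 23.8 CPM at day 2 in parietal epithelium-like cells.

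The other fibroblast members moved in both directions. Between day 30 and day 2, 5 of 28 measured members were called higher and 9 lower in fibroblast-like cells, against 10.1% and 5.98% of all measured genes. Adam12, an ADAM of mesenchymal cells, was at 165, 128 and 37.7 CPM on days 2, 7 and 30. Adamtsl2, a protein that binds fibrillin, was at 106, 8.89 and 34.4 CPM, and Mmp23 at 121, 74.4 and 58.8 CPM. Timp3 was called higher, at 496, 971 and 1550.1 CPM, a ratio of 3.12 for day 30 over day 2. Adamts2, the procollagen N-proteinase, was at 182, 139.9 and 161 CPM and was not called between any pair of libraries. The day 7 class held 53 cells.

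Mmp12, the macrophage elastase, gave more UMIs than any other Mmp gene, 83953 in all. In macrophage-like cells it was at 156, 1869 and 2464 CPM on days 2, 7 and 30, and these cells held 73.1%, 91.5% and 75.9% of the Mmp12 UMIs of their libraries. The day 2 cells lay mostly in cluster 2, which held Chil3 and also 2 platelet markers among its leading genes, so the levels are set side by side by cluster. At day 2 Mmp12 was at 81.2 CPM in cluster 2, 207 in the cycling cluster 7, 562 in cluster 20 (led by Mgl2 and Cd209a) and 60.4 in cluster 26 (led by Chil3 and Vcan). At day 7 it was at 2009 CPM in cluster 3 (led by Gpnmb and Apoe), 979 in cluster 7 and 3390.1 in cluster 15 (led by Retnla and Lyz1). At day 30 it was at 2981 CPM in cluster 3, 1669 in cluster 15 and 267 in cluster 11.

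The order of clusters 3 and 15 was reversed between the 2 later libraries: cluster 15 was the higher at day 7 and cluster 3 at day 30, with intervals that did not overlap. In the cycling cluster 7, which both libraries filled, the level was 979 CPM at day 7 (55 cells), against 207 CPM at day 2 (545 cells). Thinned to 2000 UMIs, 12.4% of macrophage-like cells at day 2, 53.1% at day 7 and 60.0% at day 30 had an Mmp12 UMI. The unthinned shares were 26.7%, 80.5% and 85.4%.

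**Figure D4:**
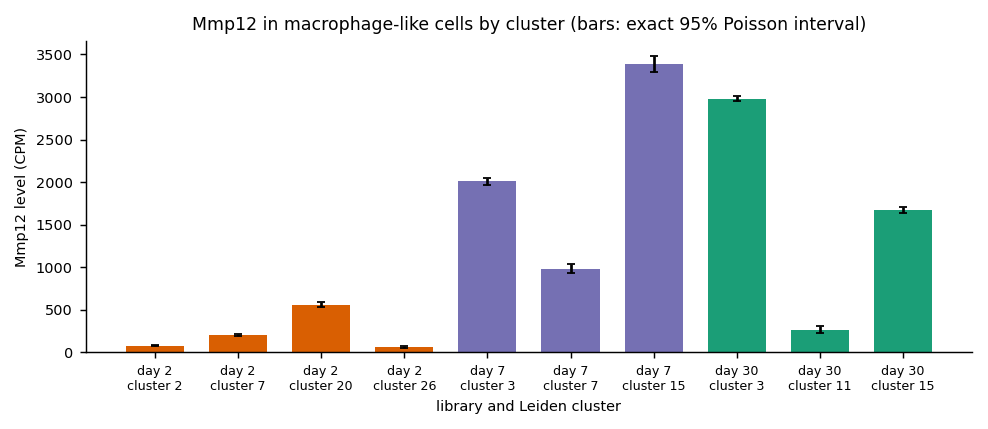
Mmp12 level (CPM) in the macrophage-like cells of each library by Leiden cluster of at least 50 such cells, with the exact 95% Poisson interval. The day 2 clusters lie between 60.4 and 562 CPM, and clusters 3, 7 and 15 at day 7 and clusters 3 and 15 at day 30 between 979 and 3390.1 CPM.

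Mmp12 was also called higher in all 3 non-immune classes compared at day 30. It was at 92.1 CPM at day 30 in proximal tubule-like cells, against 2 UMIs (0.0885 CPM) in the untreated library, and at 89.9 CPM in thick ascending limb-like cells, against 0 UMIs. In endothelium-like cells it was at 132 CPM, against 2.92 CPM. Over the 9 classes other than macrophage-like and dendritic cell-like ones, the day 30 level ran from 2.67% to 11.4% of the macrophage-like level. The 13 macrophage markers together ran from 2.48% to 5.24% of theirs in the same classes, with at most 2 of the 13 at 0. Thinned to 2000 UMIs, 16.5% of proximal tubule-like cells had an Mmp12 UMI at day 30 (56.7% unthinned), with median depths of 11214 UMIs in proximal tubule-like and 9173 in macrophage-like cells. Subtracting 10% of each class's UMIs as free RNA with the library's mean profile ended the day 30 calls of Mmp12 in proximal tubule-like and thick ascending limb-like cells and not the one in endothelium-like cells.

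Mmp9, gelatinase B, which neutrophils store in granules, was at 1742 CPM in neutrophil-like cells at day 2, the one library with at least 50 of these cells. They were 28.4% of its kept cells and held 83.9% of its Mmp9 UMIs. Mmp8, neutrophil collagenase, was at 213 CPM in the same cells, Adam8 at 212, Adam19 at 133, Adam17 at 126 and Adam10 at 109.7 CPM. Thinned to 2000 UMIs, 92.8% of neutrophil-like cells had an Mmp9 UMI, against 6.67% of proximal tubule-like cells of the same library (99.6% and 34.3% unthinned, at median depths of 5053 and 11666 UMIs).

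Mmp9 was called higher at day 2 in all 4 classes compared. It was at 39.0 CPM in proximal tubule-like cells, 45.3 in thick ascending limb-like cells, 36.9 in distal tubule-like cells and 105 in endothelium-like cells, against 2 UMIs in untreated proximal tubule-like cells and 0 in the other 3. Over the 10 epithelial, endothelial and fibroblast classes its day 2 level ran from 1.74% to 6.02% of the neutrophil-like level, and the 10 neutrophil markers together from 1.23% to 3.20% of theirs. Subtracting 10% free RNA ended 3 of the 5 Mmp9 calls, all of them at day 2 in tubule classes. The call beside the 4 at day 2 was in thick ascending limb-like cells at day 7. It was lost with Leiden clusters, at 2.73 CPM, and at a gate of 2 times the cut, at 1.23 CPM. By day 30 the Mmp9 level in proximal tubule-like, thick ascending limb-like and endothelium-like cells was 1.37, 1.14 and 1.02 CPM.

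**Figure D5:**
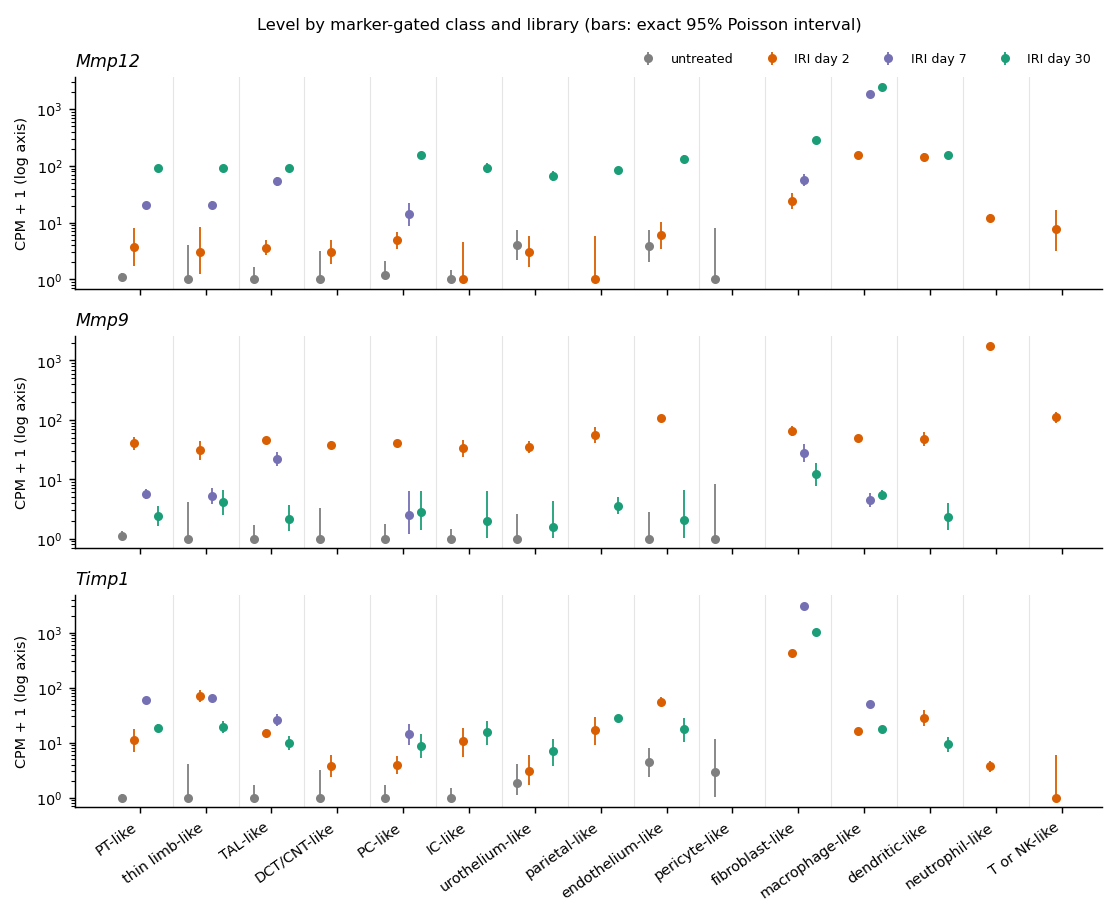
Levels of Mmp12, Mmp9 and Timp1 in each marker-gated class (CPM + 1, log axis), 1 point per library with the exact 95% Poisson interval. The highest points are macrophage-like cells at day 30 for Mmp12 (2464 CPM), neutrophil-like cells at day 2 for Mmp9 (1742 CPM) and fibroblast-like cells at day 7 for Timp1 (3089 CPM), with lower levels of Mmp9 in every other class of the day 2 library.

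Adam10, which cleaves Notch receptors and cadherins, was at 37.3 CPM in untreated proximal tubule-like cells and 56.2, 106 and 69.3 CPM on days 2, 7 and 30. The thick ascending limb-like levels were 34.9, 73.2, 94.2 and 94.9 CPM. Adam17, which releases TNF and several ligands of the EGF receptor, was at 14.0, 25.3, 26.6 and 29.7 CPM in proximal tubule-like cells and was called higher at day 30 only, with a ratio of 2.13. Adam10 was called higher in 5 of the 9 comparisons that measured it, Adam15 in 5 of 7 and Adam17 in 1 of 9. With scaling by the median ratio of genes in place of the UMI total, all 5 calls of Adam10, 4 of Adam15 and the call of Adam17 were lost. That scaling moved the median log2 difference of all genes by -0.43, -0.70 and -0.59 in proximal tubule-like cells on days 2, 7 and 30. The Adam17 call was also lost without mitochondrial UMIs, with only cells above the highest UMI floor, at the stricter gate and after free RNA subtraction. Without mitochondrial UMIs, Adam15 calls were lost in thick ascending limb-like cells at each time and in proximal tubule-like cells at day 30.

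In endothelium-like cells Adam15 was at 137, 251 and 187 CPM and Adam10 at 187, 244 and 250.1 CPM in the untreated, day 2 and day 30 libraries, none of which was called. Adamtsl1, an ADAMTS-like protein with no protease domain, was at 7.30, 36.8 and 133 CPM there and was called higher at both times, with ratios of 5.04 and 18.2. It was at 149.8 CPM in untreated pericyte-like cells, a class that no other library held at 50 cells. Adamts9 was at 8.77, 58.5 and 56.4 CPM and was called higher at both times, and Adamts4 was called higher at day 2, at 26.7 CPM against 2.43 CPM in the untreated library. Mmp11 was called higher at day 2 at 45.4 CPM, against 21.4 CPM in the untreated library, and it overlaps the abundant Chchd10 on the opposite strand. Adam9 was called higher at day 2 in all 4 classes, with ratios of 2.66 to 3.44.

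In dendritic cell-like cells, Adam23, an ADAM without an active site, was at 76.0 CPM at day 30 and 16.6 CPM at day 2. It was called higher, as were 5 of 12 measured members, against 8.8% of all measured genes. The other 4 were Adamts1, Adamts5, Timp3 and Adam19. Adamts1, Adamts5 and Timp3 were at 68.1, 21.9 and 60.5 CPM at day 30, against 373, 56.6 and 861 CPM in proximal tubule-like cells of that library. The day 2 cells lay mostly in cluster 20 and the day 30 cells in cluster 11, and the part of free RNA was not tested for these genes.

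Genes that act on or beside these proteases were counted from lists chosen by pathway. Of the plasminogen activation list, 3 of 6 measured genes were called higher in proximal tubule-like cells at day 2, 5 of 6 at day 7 and 6 of 7 at day 30, against 18.7%, 35.4% and 30% of all measured genes. Plat, tissue plasminogen activator, was at 81.5, 203 and 97.1 CPM at these times, against 0.885 CPM in the untreated library. Anxa2, an annexin that binds plasminogen at the cell surface, was at 208, 619 and 430.5 CPM, against 5.00 CPM. Serpinf2, the plasmin inhibitor, was called lower in 8 of the 9 comparisons, over which 4.24% to 11.1% of all measured genes were called lower.

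Of the basement membrane and collagen list, 5 of 7 genes were called higher in proximal tubule-like cells at day 2, 10 of 12 at day 7 and 12 of 14 at day 30, with the same shares of all measured genes as background. In the thick ascending limb-like class 3 of 8, 9 of 11 and 12 of 14 were called higher, against 12.1%, 21.7% and 23.7% of all measured genes. Col4a1, a chain of basement membrane collagen, was at 182, 499.7 and 379 CPM in proximal tubule-like cells at the 3 times, against 51.2 CPM in the untreated library. Of the shed substrates, 5 of 12, 9 of 14 and 8 of 13 were called higher in proximal tubule-like cells, against 18.7%, 35.4% and 30% of all measured genes, and 1, 3 and 2 lower, against 4.24%, 9.14% and 5.9%. Havcr1, whose outer part is shed into urine, was at 197, 883 and 98.2 CPM, against 2.74 CPM, and Egf at 2.74, 1.40 and 4.25 CPM, against 46.4 CPM. Havcr1 is among the markers by which injured cells entered the proximal tubule-like class, so its level there depends partly on the gate. Egf is among the thick ascending limb markers, and the part of free RNA in its proximal tubule-like levels was not tested. Hbegf, an EGF receptor ligand released by ADAM17, was at 145, 182 and 279 CPM in thick ascending limb-like cells, against 19.4 CPM.

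The meprins, metalloproteases of the proximal brush border that also shed surface proteins, were lower at the earlier times. In the proximal tubule-like class Mep1a was at 186 and 288 CPM at day 2 and day 7, against 587 CPM in the untreated library, and was called lower at both. At day 30 it was at 683 CPM and was not called. Mep1b was at 0, 0.255 and 56.6 CPM, against 53.2 CPM. Mme (neprilysin) was called higher at each time, at 81.5, 228 and 179 CPM, against 38.5 CPM. Of the cell-surface partners, 4, 6 and 5 of 8 were called higher in proximal tubule-like cells, against 18.7%, 35.4% and 30% of all measured genes. None of these partners was called lower, against 4.24%, 9.14% and 5.9%. Cd44, which docks MMP9 at the cell surface, was at 41.8, 256 and 90.02 CPM, against 0.266 CPM in the untreated library. None of the 3 measured proprotein convertases, which activate many of these proteases, was called in proximal tubule-like cells at any time. Of the partners of ADAM10 and ADAM17, 1, 2 and 0 of 3 were called higher there, Tspan14 among them at day 2 and day 7. The shares of all measured genes for these partners and for the convertases are those given for the cell-surface partners.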

How the data were processed

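Sorted kidney cells were profiled with the 10x Genomics 3′ v3.1 kit. The deposited count matrices hold UMI counts per gene and barcode, made with Cell Ranger 7.0.1 on mm10 per the submitters' processing notes. The headers of the matrices name software version 3.0.1 instead, and the difference was not resolved. Barcodes under 500 UMIs or 300 genes, or over 50% mitochondrial UMIs, were left out, and doublets called by Scrublet were removed. The doublet call did not work in the untreated library (1 of 9286). Cells were gated from 20 marker lists, with cuts set after the signals had been seen, and clustered without the member genes (scanpy 1.11.5, leidenalg 0.10.2, 30 components of 2000 genes, 15 neighbours, resolution 1, 36 clusters). Counts were summed by class and library. Ratios carry exact 95% Poisson intervals, and shares of cells exact binomial ones. A fold against a count of 0 uses a floor of 3 UMIs over the class. Log2 differences use CPM + 10. The calling code was tested on simulated data. The members and lists were chosen with earlier results of these data known, and the check of clusters was added after the calls over every class had been counted. Members named were those at 100 CPM or more in any class and library of at least 50 cells and, in each comparison, the 5 called higher and the 5 called lower with the largest ratio. Other genes named were chosen after their values were seen. Median-ratio scaling, mitochondrial UMIs left out, no minimum, a UMI floor, a stricter gate, Leiden classes, doublets kept and free RNA subtraction were tried as alternatives.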

Additional observations from a re-analysis of the deposited data

Results flagged for a closer look

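Timp3 differed from the untreated library in opposite directions between cell classes and between times of the same class. On the log2(CPM + 10) scale the differences from the untreated library at day 2 were 0.29 in proximal tubule-like cells, -1.44 in thick ascending limb-like cells, 0.70 in distal tubule-like cells and -0.59 in endothelium-like cells. At day 7 they were -1.37 in proximal tubule-like cells and -0.34 in thick ascending limb-like cells. At day 30 they were -0.80 in proximal tubule-like cells, 0.89 in thick ascending limb-like cells and 0.19 in endothelium-like cells. Each value rests on 1 library against 1, so the difference between classes was not tested.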

How the results depend on the processing

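No paired analysis was possible because each group has 1 library, and for the same reason no replicate could be left out. Without the check of clusters, over every class of at least 50 cells, 38, 24 and 38 pairs of member and class were called higher on days 2, 7 and 30 and 4, 3 and 3 lower. With that check at a 25% share, 33, 18 and 33 were called higher and 3, 2 and 2 lower. With mitochondrial UMIs left out of totals, 2 were called lower at day 2 and 1 at day 30, and scaling by the median ratio also gave 1 lower at day 30. The one lower at day 30 was Timp3 in proximal tubule-like cells under these alternatives and with Leiden clusters. With no minimum beyond 3 UMIs, 56, 44 and 66 were called higher and 7, 4 and 3 lower. With only cells above the highest UMI floor of any library, a single class kept 50 cells in both libraries at day 2 and at day 30. The thick ascending limb-like class then had 5 called higher at day 2, against 6 with all cells, and the proximal tubule-like class 7 at day 30, against 7. With Leiden clusters in place of the gate, 23, 25 and 27 were called higher and 1, 1 and 1 lower. Of those called higher, 8 at day 7 and 6 at day 30 were in a distal class that the gate left under 50 cells at those times. In proximal tubule-like cells at day 30 the count called higher was 4 of 9, against 7 of 9, both without mitochondrial UMIs and under median-ratio scaling, and that scaling also gave 4 against 7 in thick ascending limb-like cells. At day 7 median-ratio scaling gave 4 against 6 in proximal tubule-like cells and 6 against 9 in thick ascending limb-like cells. At day 2 it gave 4 against 6 in thick ascending limb-like cells and 4 against 5 in distal tubule-like cells. No call changed direction under any alternative. Of the 58 calls, 44 were kept under median-ratio scaling, 49 without mitochondrial UMIs, 47 after subtracting 10% free RNA, 51 at a gate of 2 times the cut and 56 with Leiden clusters. The calls of Adamts1, Adamts5, Timp3, Adamts4 and Adamtsl1 were lost under none of the alternatives that gave them a value. In all, 65 of the 82 members were measured in no comparison with the untreated library. Some of these, such as Mmp8 and Adam12, were above 100 CPM in classes that the untreated library did not hold at 50 cells, and 13 members had no UMI at all.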

Other observations

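Adamts16 was at 37.8 CPM at day 30 and 22.5 CPM at day 2 in parietal epithelium-like cells, and at 28.1, 6.07, 8.15 and 12.7 CPM in principal cell-like cells from untreated to day 30. Mmp2 in parietal epithelium-like cells was 5.43-fold higher at day 30 than at day 2 (interval 3.42 to 9.20), where 5.5% of all measured genes were called higher. Adam19 was at 71.5 CPM in T or NK cell-like cells at day 2, against 133 CPM in neutrophil-like cells of the same library.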
